A study of Mus musculus with 8 samples.

Results

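The proteasome genes were followed in conventional CD4 T cells from the central nervous system of mice with experimental autoimmune encephalomyelitis (EAE), a model of multiple sclerosis. They were chosen as the genes whose symbol begins with Psma, Psmb, Psmc, Psmd or Psme and that had 50 or more UMIs (unique molecular identifiers, 1 per captured RNA molecule) over 4 single-cell RNA libraries. 43 of the 45 genes with these prefixes passed, of 32285 gene rows in all and 11774 with as many UMIs. The 43 genes are 5 of the immunoproteasome (Psmb8, Psmb9, Psmb10, Psme1 and Psme2) and 38 others, called the remaining genes below. Psma8, a testis α subunit, was left out with UMIs of 3, 0, 0 and 1, and Psmb11, the thymic catalytic subunit, with 2 UMIs, both in the day 14 spinal cord. Psmc3ip has the prefix but is a meiotic recombination factor and no subunit, and Psme2b is a near copy of Psme2, so that reads of the pair could have been split.

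The proteasome degrades ubiquitin-tagged proteins inside a barrel of α and β rings, where the β5, β1 and β2 subunits (Psmb5, Psmb6 and Psmb7) cut the chain. A 19S cap of ATPases and other subunits recognises, unfolds and feeds the substrate. Interferons induce replacement subunits, β5i (Psmb8), β1i (Psmb9) and β2i (Psmb10), and the PA28 activator (Psme1 and Psme2). The resulting immunoproteasome is the usual form in lymphocytes and favours peptides that fit MHC class I.

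The cells came from Foxp3-Cre-YFP mice, in which cells that express Foxp3 carry a Cre-YFP reporter, at day 14 (acute) or day 50 (chronic) after immunization for EAE; there was no unimmunized group. They were sorted as CD44+, Foxp3-YFP-, TCRβ+, CD11b- CD4 T cells from brain freed of meninges or from spinal cord. RNA and the surface proteins CD69, P2X7R and CXCR6 were counted by CITE-seq, in which DNA-tagged antibodies are read beside the RNA of each cell. Each tissue and day was 1 RNA library with 1 antibody library (8 samples), and neither the number of mice in a library nor their age is given in the sources used here.

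Cells were kept if they had 500 or more genes and no more than 10% of UMIs from mitochondrial genes. The day 14 brain library kept 10313 cells, the day 50 brain 348, the day 14 spinal cord 9270 and the day 50 spinal cord 1620, and values for the 4 libraries are given in this order throughout. The kept cells held 47272714, 1177903, 50710551 and 6078142 UMIs, with medians of 3014.5 to 4921 per cell, so the day 50 brain library is by far the shallowest. T cell markers summed to 6597 to 6892 CPM (UMIs of a gene scaled to the library's total in the usual way), and Foxp3 had 0 to 2 UMIs. Markers of neutrophils (at most 0.164 CPM), B cells (at most 1.70) and CD8 T cells (at most 6.63) were near 0. Dendritic cell markers summed to 14.9, 114, 15.8 and 11.8 CPM, macrophage and microglia markers to 7.40, 1.70, 20.5 and 10.4 CPM, and neural and vessel markers to 90.3, 76.4, 136 and 69.1 CPM. Of the neural and vessel sums, Mbp alone gave 49.5, 42.4, 74.6 and 50.3 CPM, while Snap25 and Cldn5 had 0 UMIs in each library. The dendritic cell sum of the day 50 brain came from few cells: every UMI of H2-Aa, H2-Ab1 and H2-Eb1 there was in at most 2 cells. The day 14 brain and spinal cord libraries shared 33 cell barcodes, and other pairs at most 4.

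Sequence at the starts of the genes is given first, because the immunoproteasome genes lie apart from the genes they replace. Psmb9 (chromosome 17, 34182030 to 34187330 in GRCm38.p6) and Tap1, the peptide transporter, are transcribed away from each other, with 225 bases between them. Psmb8 (34198195 to 34201454) begins 0.969 kb beyond Tap1, and Tap2 lies 3.02 kb further on, while Psme1 and Psme2 lie 5.91 kb apart on chromosome 14. The lines below give the whole stretch between Psmb9 and Tap1 (chr17:34187331-34187555, plus strand), part of the promoter of Psmb8 (chr17:34198073-34198131, plus strand), 30 bases of Psme1 that begin 1 base before its start and lie otherwise inside the transcript (chr14:55578493-55578522, plus strand) and, for contrast, part of the promoter of the constitutive Psmb5 (chr14:54618009-54618067, minus strand), all from RefSeq. Capitals mark GGGCGG (the GC box) in the first, TTCNNNGAA (the STAT core) in the second, the interferon response core (GAAA, any 2 bases and GAAA) in the third and TGACNNNGC (the antioxidant response core) in the fourth, each on either strand.
Psmb9 to Tap1: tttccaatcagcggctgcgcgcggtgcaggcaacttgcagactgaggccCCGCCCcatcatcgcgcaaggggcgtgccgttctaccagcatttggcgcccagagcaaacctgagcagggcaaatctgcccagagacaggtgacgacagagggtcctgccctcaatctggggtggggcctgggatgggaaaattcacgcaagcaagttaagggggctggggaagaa
Psmb8: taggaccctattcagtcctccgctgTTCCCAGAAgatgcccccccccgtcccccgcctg
Psme1: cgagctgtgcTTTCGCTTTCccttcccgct
Psmb5: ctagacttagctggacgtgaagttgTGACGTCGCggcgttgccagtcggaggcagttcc

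RefSeq promoters, from 250 bases before to 50 after a start site, were at hand for 37 of the 43 genes. The interferon response core was in a promoter of 3.99% of all 27025 genes and, of the genes here, of Psmb3, Psmd4, Psmd9 and Psme1. TTCNNNGAA was found for 9.55% of all genes and for Psmb8 and Psmd2. TGACNNNGC was found for 14.0% of all genes, for 6 of 32 remaining genes (Psmb5, Psmb6, Psmc6, Psmd12, Psmd9 and Psme4) and for 0 of 5 immunoproteasome genes. GGGCGG was found for 38.2% of all genes and for 22 of 37. These are matches of letters, none of them known here to be bound.

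The immunosubunits were the main catalytic transcripts in every library. Psmb8 was the highest of the 43 genes, at 861 CPM (95% Poisson interval 852 to 869) in the day 14 brain, 756 (708 to 808) in the day 50 brain, 912 (904 to 921) in the day 14 spinal cord and 887 (863 to 911) in the day 50 spinal cord. It ranked 154th to 170th of all gene rows. These intervals, like every interval below, cover counting error only, and the 3′ kit tags each molecule once, so levels carry no correction for length. The constitutive partner Psmb5 stood at 191, 138, 217 and 173 CPM, below Psmb8 in each library. Psmb9 stood at 318, 269, 281 and 303 CPM, against 169, 133, 182 and 185 CPM for its partner Psmb6. Psmb10 was the lowest of the immunoproteasome genes, at 185, 189, 174 and 215 CPM, and its partner Psmb7 was at 101, 61.1, 93.8 and 63.2 CPM. Each replacement subunit was above its partner in all 4 libraries.

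The activator genes Psme1 (482, 524, 445 and 509 CPM) and Psme2 (376, 325, 433 and 371 CPM), whose products form the PA28 ring together, were also high. In contrast, Psme3, which encodes the nuclear PA28γ, stood at 20.4 to 27.2 CPM, and Psme4, which encodes the PA200 activator, at 12.3 to 22.8 CPM. The 7 genes of the α ring had medians of 201, 122, 216 and 127 CPM, and the 4 noncatalytic β genes 341, 259, 357 and 285 CPM. The 6 ATPases of the 19S cap lay between 34.6 and 141 CPM. Psmc3ip was the lowest gene in the day 14 brain (7.98 CPM), the day 50 brain (5.09 CPM, equal to Psme2b) and the day 14 spinal cord (8.87 CPM), and Psme2b in the day 50 spinal cord (5.26 CPM). The plot of levels by role shows that rings and cap overlap: in the day 14 brain the cap genes Psmd8 (227 CPM) and Psmd4 (209 CPM) stood above the α genes Psma1 (123 CPM) and Psma6 (137 CPM). The 43 genes together took 0.744%, 0.612%, 0.772% and 0.665% of all UMIs. In cells thinned to 2000 UMIs, Psmb8 was detected in 77.6%, 76.4%, 81.5% and 80.6% of cells and Psmb7 in 17.3%, 10.0%, 16.4% and 12.6%; no cell type lacking these genes was at hand as a background for such shares.

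**Figure D1:**
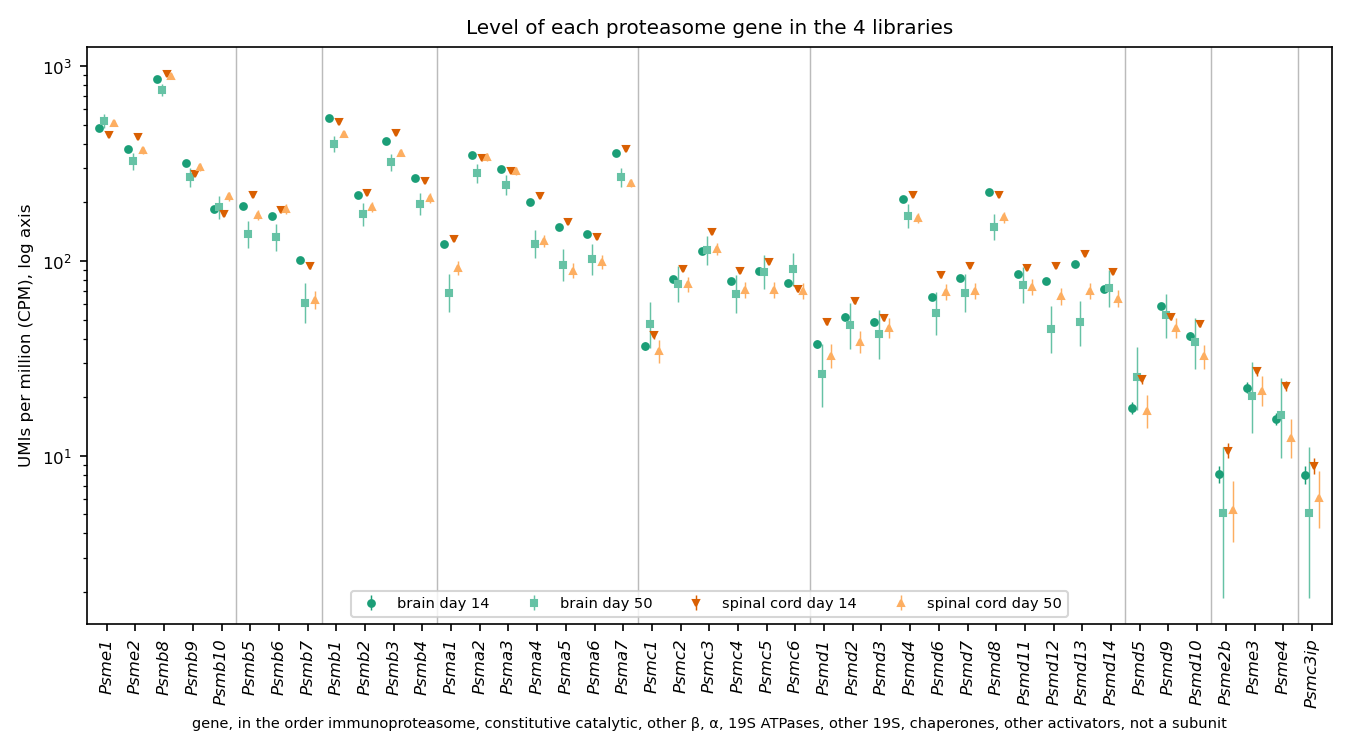
Level of each of the 43 genes (x axis, grouped by role) in CPM on a log axis, 1 point per library with its 95% Poisson interval. Psmb8 is highest in all 4 libraries, and Psmc3ip or Psme2b is lowest.

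The first comparison asks how the chronic phase differs from the acute phase in each tissue. The immunoproteasome took a larger share of proteasome transcripts at day 50 than at day 14 in both tissues. Psmb8, Psmb9, Psmb10, Psme1 and Psme2 made up 29.9% (95% Clopper-Pearson interval 29.7 to 30.0) of the UMIs of all 43 genes in brain at day 14 and 33.7% (32.6 to 34.8) at day 50. In spinal cord they made up 29.1% (28.9 to 29.2) at day 14 and 34.4% (33.9 to 34.8) at day 50. These shares do not depend on how libraries are scaled. With 1 library per group there is no test across animals, and no p-value is given for any comparison between libraries.

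Of the 3 catalytic pairs, that of β2i differed most between the days. Psmb10 made up 64.8% (63.9 to 65.6) of the UMIs of Psmb10 and Psmb7 in brain at day 14 and 75.6% (70.3 to 80.4) at day 50. In spinal cord the share was 65.0% (64.2 to 65.8) at day 14 and 77.3% (75.2 to 79.3) at day 50. The day 50 intervals lie wholly above the day 14 intervals in both tissues, and the tissues overlap within each day. The Psmb8 share of Psmb8 and Psmb5 was 81.8% (81.5 to 82.2) and 84.6% (82.3 to 86.7) in brain and 80.8% (80.4 to 81.1) and 83.7% (82.8 to 84.6) in spinal cord. The Psmb9 share of Psmb9 and Psmb6 was 65.2% (64.6 to 65.8) and 66.9% (62.4 to 71.1) in brain and 60.8% (60.1 to 61.4) and 62.1% (60.4 to 63.9) in spinal cord, so that for this pair the intervals of the 2 days overlap in each tissue. Between tissues, the Psmb9 share was 4.45 points lower in spinal cord than in brain at day 14, where the intervals are apart, and 4.75 points lower at day 50, where they overlap.

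**Figure D2:**
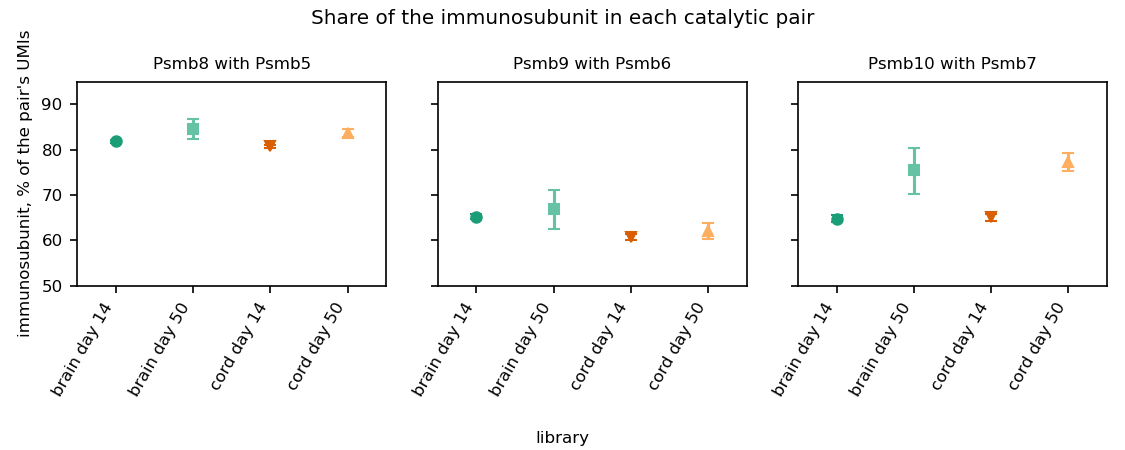
Share of the immunosubunit in the UMIs of each catalytic pair (y axis, percent, from 50 to 95) in the 4 libraries, with 95% Clopper-Pearson intervals. The Psmb10 share stands at 64.8% and 65.0% at day 14 and at 75.6% and 77.3% at day 50.

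The states of the cells also differed between days. The median log2 ratio of 30 cycling genes, day 50 against day 14 after the subtraction described below, was -0.57 in brain and -0.96 in spinal cord, and that of 25 interferon-induced genes was 0.13 and 0.81. Ribosomal protein genes took 34.1% and 36.4% of UMIs in brain and 30.8% and 37.6% in spinal cord. Cells with 2000 or more UMIs were scored by each list, and at most the top 1 in 10 of them was left out in each library. The score at which cells were left out thus differs between libraries. Shallower cells (1163, 98, 142 and 127) were not scored and stayed in. This removed 888, 24, 812 and 140 cells by interferon-induced genes and 769, 12, 658 and 100 by cycling genes. Without the former, the Psmb10 share was 63.0% and 75.2% in brain and 63.6% and 76.7% in spinal cord. Without the latter, it was 66.4% and 76.4% in brain and 65.7% and 77.5% in spinal cord.

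Gene by gene, ratios were set against the median of all compared genes (10 or more UMIs over both libraries), which was subtracted where its log2 size passed 0.1, and a gene was called at 1.5-fold or more with an interval clear of no change. For day 50 against day 14 this median was -0.14 in brain and -0.33 in spinal cord. In spinal cord all 5 immunoproteasome genes had intervals above the median of all genes, against 25.0% of all genes. Whether an interval clears the median also depends on the number of UMIs, and these 5 genes had 1307 to 5391 at day 50. The 25.0%, like each share of intervals below, includes genes with as few as 10 UMIs and is no like comparison. Psmb10 had a log2 ratio of 0.63 (0.55 to 0.72), Psme1 0.52 (0.47 to 0.58), Psmb9 0.44 (0.37 to 0.51), Psmb8 0.29 (0.25 to 0.33) and Psme2 0.11 (0.05 to 0.17). Without the subtraction these were 0.30, 0.19, 0.11, -0.04 and -0.22, so Psmb8 and Psme2 change sign with the scaling. Psmb10 alone was called higher, though not without the subtraction, 1 of 5, against 12.9% of all genes called higher and 10.4% called lower. At 1.2-fold, 4 of 5 were higher, against 22.0% of all genes, and 0 lower, against 18.0%.

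The 38 remaining genes had a median log2 ratio of -0.05 in spinal cord, against 0.44 for the immunoproteasome genes, and -0.38 against 0.11 without the subtraction. Of the 38, 0 were called higher and 1 lower, Psme2b at -0.68 (-1.25 to -0.17). The most clearly lower were the α subunit genes Psma5, at 158 CPM on day 14 and 89.3 on day 50 (-0.49, -0.62 to -0.36), and Psma4, at 216 and 127 CPM (-0.43, -0.54 to -0.33). Psme4 was at 22.8 and 12.3 CPM (-0.55, -0.91 to -0.22). The constitutive genes did not move as 1 group. Psmb6 was at 0.36 (0.26 to 0.44), Psmb5 at 0.00 (-0.09 to 0.09) and Psmb7 at -0.24 (-0.39 to -0.09), or 0.02, -0.33 and -0.57 without the subtraction.

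In brain, where the day 50 library is small, 0 of 5 immunoproteasome genes were called in either direction, against 7.33% of all genes called higher and 3.31% called lower. Psme1 had a log2 ratio of 0.26 (0.14 to 0.37) and the only interval of the 5 above the median of all genes. Psmb10 was at 0.17 (-0.03 to 0.36), Psmb8 at -0.05 (-0.15 to 0.05), Psme2 at -0.07 (-0.22 to 0.07) and Psmb9 at -0.10 (-0.27 to 0.06), with intervals that include 0. Without the subtraction of -0.14 the median of the 5 genes went from -0.05 to -0.19. The intervals of Psmb8, Psme2 and Psmb9 then lie below 0, while the ratios of Psme1 and Psmb10 stay above 0. Of the remaining genes, 14 of 38 had intervals below 0 and 3 above, against 6.74% and 11.0% of all genes, and their median was -0.17. The 3 called lower were Psmd13 (96.2 and 48.4 CPM, -0.85, -1.26 to -0.48), Psma1 (123 and 68.8 CPM, -0.70, -1.04 to -0.39) and Psmd12 (79.1 and 45.0 CPM, -0.68, -1.10 to -0.29). Psmd12 and Psmd13 encode subunits of the 19S lid and Psma1 one of the α ring. Without the 2 cells richest in each gene, 0 genes were called lower and 4 higher, and without the subtraction 7 lower and 0 higher. The shares of all genes called under these settings were not counted. The 1 called higher was Psmd5, a chaperone of 19S assembly (17.6 and 25.5 CPM, 0.67, 0.10 to 1.2), no longer called at 0.54 without the subtraction. Of the constitutive genes, Psmb5 was at -0.34 (-0.57 to -0.11) and Psmb6 at -0.21 (-0.45 to 0.02). Psmb7 (-0.58, -0.94 to -0.25) and Psma4 (-0.58, -0.83 to -0.34) lay just short of a call, and the ATPase gene Psmc1 stood at 0.51 (0.10 to 0.90). At 1.2-fold 3 of the remaining genes were higher and 12 lower, against 10.4% and 6.00% of all genes.

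**Figure D3:**
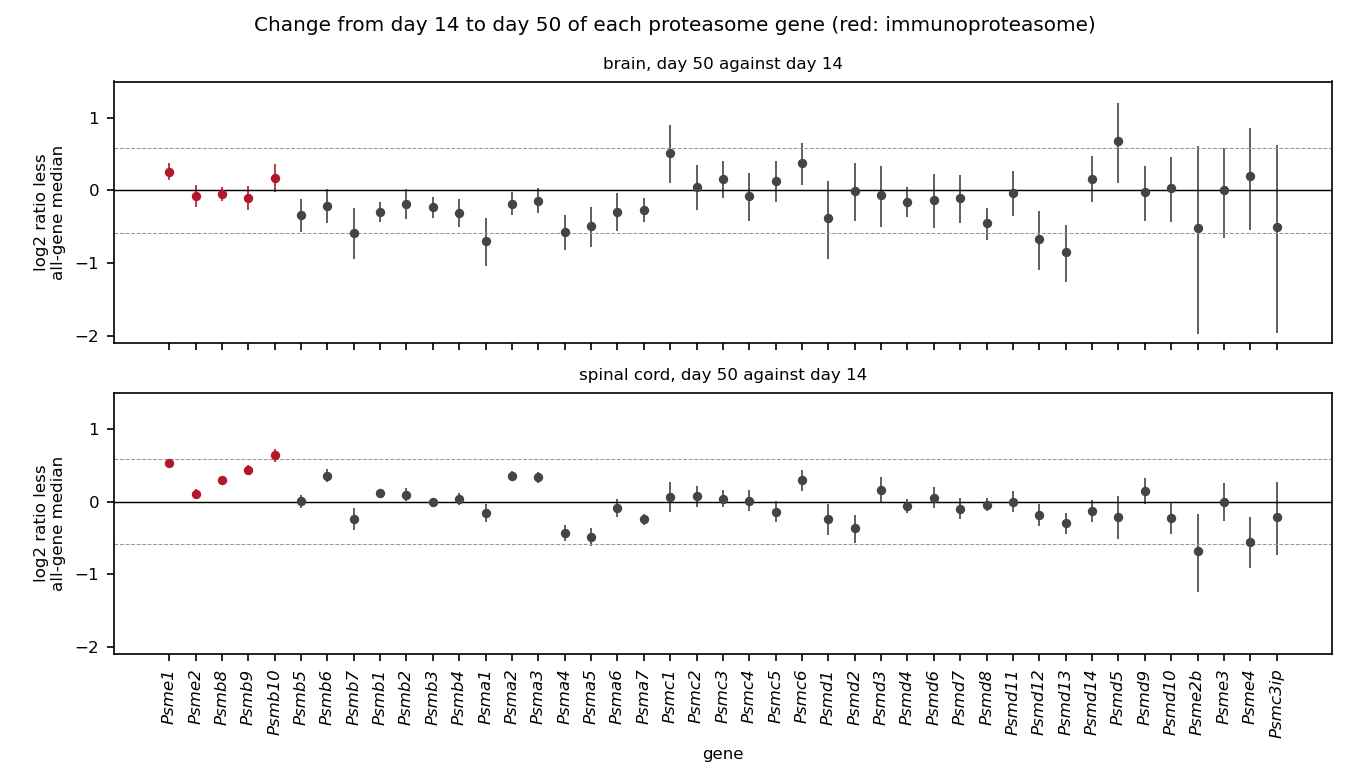
Log2 ratio of day 50 to day 14 less the median of all genes (y axis) for each gene (x axis), in brain above and spinal cord below, with 95% intervals of counting error; dashed lines mark 1.5-fold. The 5 immunoproteasome genes (red) lie between 0.11 and 0.63 in spinal cord and between -0.10 and 0.26 in brain.

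Genes that work with the proteasome were set beside these. Of 15 MHC class I processing genes, 6 were called higher and 1 lower at day 50 in spinal cord, and 1 higher and 0 lower in brain. The shares of all genes called higher and lower, given above, are 12.9% and 10.4% in spinal cord and 7.33% and 3.31% in brain, and they stand behind each count here. The median of these 15 was 0.32 in spinal cord, or -0.01 without the subtraction, and 0.16 in brain, or 0.02. H2-Q4, a class Ib heavy chain of a family of near-identical copies, was at 133 and 284 CPM in spinal cord (log2 ratio 1.43) and at 177 and 361 CPM in brain (1.17). H2-D1, a classical class I heavy chain, was at 2223 and 3347 CPM in spinal cord (0.92). Of 16 genes induced by interferon-γ, 0 were called higher and 7 lower in spinal cord. In brain 2 were called higher, 1 lower. Of 14 ubiquitin and shuttling genes, 4 were called higher and 1 lower in spinal cord, and 2 and 0 in brain. Of 15 assembly and associated genes, 3 were called higher and 1 lower in spinal cord, with the assembly chaperone genes Psmg1 at 0.77 and Psmg3 at -0.90, and 0 in either direction in brain. Of 6 regulators of proteasome transcription, 1 was called in brain, Nfe2l2 at 0.64, and 0 in spinal cord.

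The second comparison sets spinal cord against brain at the same day. It shares each library with the comparison of days. At day 14 no proteasome gene was called in either direction, against 6.40% of all genes called higher and 6.24% called lower, and the median of all genes, 0.20, was subtracted. At 1.2-fold 3 of 5 immunoproteasome genes were lower in spinal cord, against 15.7% of all genes: Psmb9 at -0.37 (-0.41 to -0.34), Psme1 at -0.31 (-0.34 to -0.29) and Psmb10 at -0.29 (-0.33 to -0.24). Without the subtraction they stood at -0.17, -0.12 and -0.086. Psmb8 was at -0.12 (-0.13 to -0.10), or 0.08 without the subtraction, and Psme2 at 0.00 (-0.03 to 0.03), or 0.20. The remaining genes had a median of -0.06, or 0.14 without the subtraction, and at 1.2-fold 2 of them were higher, against 19.5% of all genes, and 3 lower. Among them Psmd9, a 19S assembly chaperone, was at -0.39 (-0.47 to -0.31), Psme4 at 0.36 (0.23 to 0.50) and Psmd5 at 0.30 (0.17 to 0.42). Of the constitutive genes Psmb7 was at -0.30 (-0.36 to -0.24), Psmb6 at -0.10 (-0.14 to -0.06) and Psmb5 at -0.01 (-0.05 to 0.03), or -0.10, 0.10 and 0.19 without the subtraction. The interferon-induced genes were lower in spinal cord than in brain at day 14, with a median of -1.11 and 20 of 25 called lower, and their part in these ratios was not tested.

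At day 50 the median of all genes was 0.04 and was not subtracted. No proteasome gene was called in either direction, against 2.60% of all genes called higher and 4.41% called lower. The immunoproteasome genes had a median log2 ratio of 0.18 and the remaining genes 0.05. Psmb8 was at 0.23 (0.13 to 0.33) and Psme2 at 0.19 (0.03 to 0.35), with intervals above 0, 2 of 5, against 6.34% of all genes, and 0 below, against 6.90%. Without the 2 cells richest in each gene they were at 0.04 and 0.00, with intervals that include 0. Psmb10 (0.18, -0.02 to 0.40), Psmb9 (0.17, -0.0014 to 0.35) and Psme1 (-0.04, -0.17 to 0.09) had intervals that include 0. Psmb5 was at 0.33 (0.09 to 0.58) and Psmb7 at 0.05 (-0.32 to 0.43). Psmb6 was at 0.47 (0.23 to 0.72), Psmd12 at 0.55 (0.14 to 0.99) and Psmd13 at 0.54 (0.14 to 0.97), while Psmc6 was at -0.37 (-0.68 to -0.05) and Psmc1 at -0.46 (-0.89 to -0.01). At 1.2-fold 6 of the remaining genes were higher, against 4.87% of all genes, and 2 lower, against 6.16%.

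The third comparison was made between cells of the same library, where the libraries serve as replicates. Cells with 2000 or more UMIs were thinned to 2000, and those with the most UMIs of a list of genes, at most 1 in 10 of a library, were set against the rest. Summed counts were tested with edgeR's quasi-likelihood test with library as a block, and each adjusted p below is Benjamini-Hochberg adjusted over all genes tested. Such a class is a range of a score and not a cell type. For interferon-induced genes it held 888, 24, 812 and 140 cells, with 91, 3, 138 and 12 cells exactly at its lower limit and 110, 2, 147 and 14 at 1 UMI less. That limit was set in each library, at 18, 22, 9 and 13 UMIs, and the median scores of the class were 24, 32, 13 and 18.5. Cells of the same score can thus be in the class in spinal cord and among the others in brain.

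All 5 immunoproteasome genes rose in interferon-induced cells, each in 4 of 4 libraries; none of the 5 is on the list that defined these cells. Psmb10 was at 319, 253, 296 and 307 CPM in interferon-induced cells and at 172, 169, 164 and 206 CPM in the others. Every interferon-induced value is above every other value, with a log2 fold change of 0.77 (SE 0.075, adjusted p = 1.82e-13). Psmb9 was at 471, 574, 410 and 403 CPM against 304, 240, 270 and 292 CPM (0.61, SE 0.073, adjusted p = 2.66e-10). Psme1 was at 735, 720, 667 and 735 CPM against 458, 505, 426 and 484 CPM (0.60, SE 0.068, adjusted p = 5.79e-11). The values of the classes did not overlap for any of the 5 genes, Psme2 and Psmb8 (below) included. How many of all genes show no such overlap was not counted, here or for cycling cells.

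Psme2 was at 507, 584, 582 and 514 CPM in interferon-induced cells and at 366, 303, 420 and 360 CPM in the others (0.50, SE 0.070, adjusted p = 4.11e-08). Psmb8, the highest of the genes, had the smallest log2 fold change of the 5: 1150, 1032, 1149 and 1142 CPM against 838, 727, 893 and 867 CPM (0.38, SE 0.065, adjusted p = 5.27e-06). The rise of these 5 stands against 4.98% of all 9462 genes tested that rose and 5.46% that fell. All 5 genes still rose when any 1 library was left out.

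The constitutive catalytic genes did not pass the test. Of Psmb5, Psmb6 and Psmb7, 0 of 3 passed edgeR's test, 0 had an unadjusted p under 0.05 and 0 passed with DESeq2, and their log2 fold changes lay between -0.12 and -0.01. Of the 38 remaining genes 2 rose and 0 fell by edgeR's test, with 2 higher and 3 lower at an unadjusted p under 0.05 and none by DESeq2. The 2 were Psma5, at 0.23 (adjusted p = 0.0354), and Psme2b, at 0.72 (adjusted p = 0.00427), whose reads cannot be told from those of Psme2 with certainty and which had 0 UMIs in the 24 interferon-induced cells of the day 50 brain. Both lost their call without the day 14 brain or without the day 14 spinal cord library, where 0 of 38 rose, and without the day 50 spinal cord 1 of 38 rose and 1 fell. The Psmb10 share was 77.6%, 78.8%, 76.3% and 81.2% in interferon-induced cells and 62.7%, 75.7%, 63.5% and 76.7% in the others. Among the other cells it was again higher at day 50 than at day 14 in both tissues, and in interferon-induced cells the intervals of the days overlap in brain (75.4 to 79.6 and 61.1 to 91.0) and in spinal cord (74.1 to 78.4 and 75.3 to 86.3). The lower limits of the class differ between libraries, so these shares are not of cells of equal score.

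**Figure D4:**
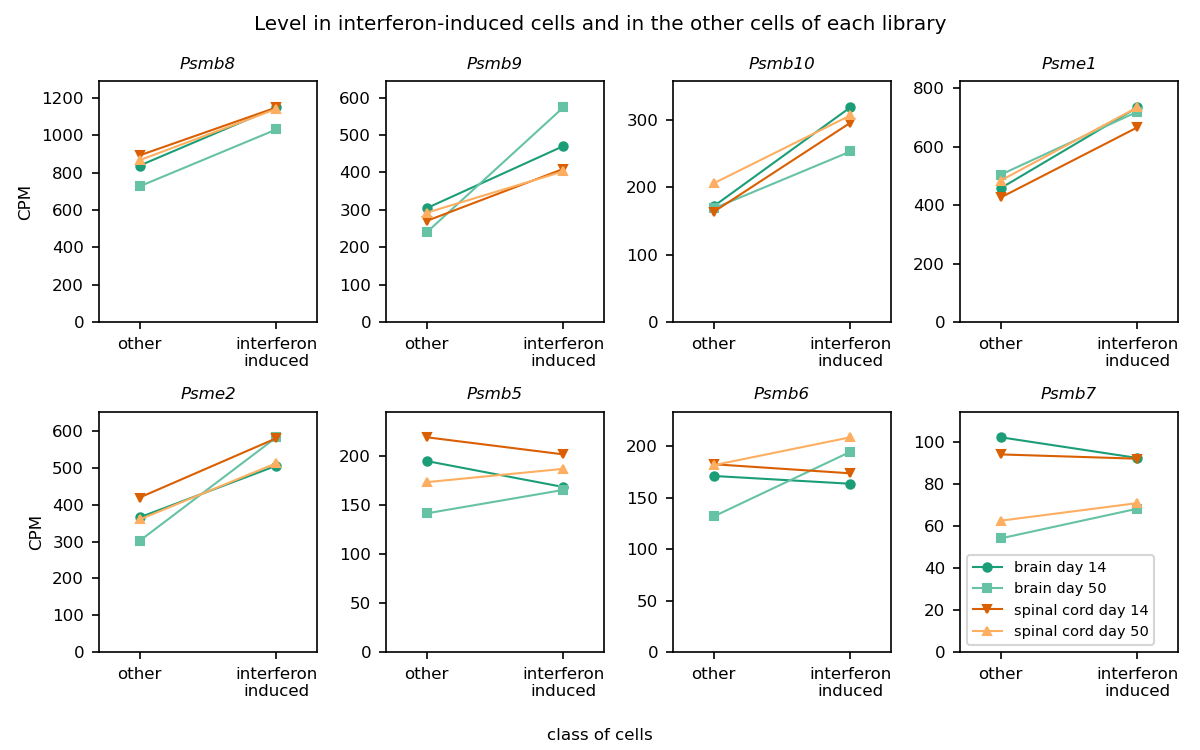
CPM (y axis, from 0) of the 5 immunoproteasome genes and the 3 constitutive catalytic genes in interferon-induced cells and the other cells, 1 line per library. Every line of the 5 rises, Psmb10 from 164 to 206 CPM in the other cells to 253 to 319 CPM, while those of Psmb5, Psmb6 and Psmb7 run in both directions.

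MHC class I processing genes rose with them in the same cells, 12 of 15 higher and 1 lower. H2-T23, a nonclassical class I heavy chain, had a log2 fold change of 0.77, Tapbp, which encodes the peptide-loading factor tapasin, 0.79, and Tap1, the head-to-head neighbour of Psmb9, 0.67 (adjusted p = 8.97e-12). Tap1 stood at 178, 136, 161 and 118 CPM against 105, 70.2, 104 and 81.4 CPM. Calr, a chaperone of the endoplasmic reticulum, was at -0.26. All 16 interferon-γ-induced genes rose, with a median of 1.24. Of the assembly and associated genes 0 of 15 rose and 2 fell, of the ubiquitin and shuttling genes 0 of 14 rose and 1 fell, and of the 6 regulators of proteasome transcription 0 passed in either direction with edgeR or with DESeq2. At an unadjusted p under 0.05 edgeR gave 0 higher and 4 lower for each of the first pair of lists and 1 higher and 1 lower for the regulators.

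In cycling cells most of the remaining genes rose. Cycling cells were compared in 3 libraries, with 769 cells of the day 14 brain, 658 of the day 14 spinal cord and 100 of the day 50 spinal cord, since the day 50 brain held only 12. Of these 3 classes, 150, 205 and 50 cells lay exactly at the lower limit, and 271, 381 and 95 others at 1 UMI less. Their median scores were 14, 8 and 6.5 UMIs, against 2 in the others, so the day 50 class lies close to its limit. Of the remaining genes 25 of 38 rose and 2 fell, and of the immunoproteasome genes 1 of 5 rose, against 15.0% of all genes that rose and 9.79% that fell. All 6 ATPase genes of the 19S cap and all 3 constitutive catalytic genes rose, with 8 of 11 other 19S genes and 4 of 7 α genes. With DESeq2 these counts were 0 of 6, 0 of 3, 1 of 11 and 0 of 7. By edgeR Psmb7 had a log2 fold change of 0.38, Psmb6 0.35 and Psmb5 0.31. Psmd13 was at 151, 142 and 121 CPM in cycling cells and at 89.2, 106 and 67.0 CPM in the others (0.60, SE 0.097, adjusted p = 7.61e-05), with no overlap between the classes. Psmd1, the scaffold subunit of the 19S base, was at 60.3, 64.3 and 38.5 CPM against 34.7, 47.3 and 31.8 CPM (0.57, SE 0.10, adjusted p = 0.000276), where the classes overlap between libraries.

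Psmc3ip, the recombination factor, had the largest fold change of the 43 in cycling cells: 26.3, 29.7 and 20.6 CPM against 5.42, 6.65 and 4.91 CPM (2.18, SE 0.15, adjusted p = 9.66e-11). Of the immunoproteasome genes Psmb9 rose, at 0.29 (adjusted p = 0.0421), and Psmb8 (0.09), Psme2 (-0.09), Psme1 (-0.15) and Psmb10 (-0.16) did not pass. The genes that fell were Psme4 (-0.40, adjusted p = 0.0423) and Psme2b (-0.89, adjusted p = 0.00666). The Psmb10 share was 54.7% and 66.2% in cycling and other cells of the day 14 brain, 58.8% and 65.7% in the day 14 spinal cord and 74.1% and 77.5% in the day 50 spinal cord, where the intervals overlap. The count rests on both day 14 libraries: without the day 14 brain or without the day 14 spinal cord 2 of 38 remaining genes and 0 of 5 immunoproteasome genes rose. Of all genes tested, 570 of 10248 rose without the day 14 brain and 531 of 10180 without the day 14 spinal cord. With DESeq2 3 of the 38 rose, Psmc3ip among them, against 709 of 10140 genes. Cycling cells held more UMIs than the others in the day 14 libraries (medians of 6143 and 4232 in brain, 6628 and 4899 in spinal cord). In the day 50 spinal cord they held fewer (3252 and 3635). The part of depth was not tested.

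Of the other lists in cycling cells, 5 of 15 assembly and associated genes rose and 0 fell, with the deubiquitinase gene Uchl5 at 0.94 (adjusted p = 6.11e-08) and the 20S assembly chaperone gene Psmg3 at 0.53. Of the MHC class I processing genes 2 of 15 rose, Pdia3 (0.39) and Canx (0.35), both chaperones of the endoplasmic reticulum, and 0 of 16 interferon-γ-induced genes rose while 5 fell. Of the ubiquitin and shuttling genes 1 rose and 2 fell, and of the regulators 0 rose and 1 fell.

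Cells with many UMIs of genes induced through the T cell receptor (760, 21, 642 and 105 cells) had lower immunosubunits. Of these cells 272, 6, 221 and 39 lay exactly at the lower limit of the class, and 439, 16, 316 and 69 others at 1 UMI less. Their median scores were 8, 10, 8 and 8 UMIs, against 2 in the others. Psmb10, Psmb8 and Psmb9 fell, 3 of 5, each lower in 4 of 4 libraries, against 5.85% of all genes that fell and 7.79% that rose. Psmb10 was at 148, 96.3, 137 and 187 CPM in these cells and at 188, 185, 177 and 217 CPM in the others (-0.40, SE 0.10, adjusted p = 0.00457). Psmb9 was at 267, 203, 233 and 281 CPM against 324, 280, 286 and 304 CPM (-0.32, SE 0.10, adjusted p = 0.0253), and Psmb8 at 752, 653, 752 and 811 CPM against 875, 768, 927 and 899 CPM (-0.30, SE 0.095, adjusted p = 0.0233). Across libraries the values of these cells overlap those of the others for each of the 3 genes, so the fall shows only within libraries. The day 50 brain values of this class, here and below, rest on 21 cells. The Psmb10 share of Psmb10 and Psmb7 in them was 56.2%, with an interval of 29.9 to 80.2.

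The activator genes Psme1 and Psme2 did not pass the test in either direction. Psme2 stood at 474, 406, 566 and 425 CPM against 370, 323, 422 and 371 CPM, higher in 4 of 4 libraries without passing the test (0.27, adjusted p = 0.0622), and Psme1 was at -0.14 (adjusted p = 0.437). Of the remaining genes 2 of 38 rose: Psme3, at 32.2, 32.1, 37.0 and 30.7 CPM against 21.8, 22.5, 26.4 and 19.96 CPM (0.51, SE 0.13, adjusted p = 0.00463), and Psmd1 (0.42, adjusted p = 0.00905). Without the day 14 brain library none of the 43 genes passed, 6 having an unadjusted p under 0.05, without the day 14 spinal cord 1 fell and 0 rose, and without the day 50 brain 3 immunoproteasome genes fell and 1 rose. Psmb7, Psmb5 and Psmb6 stood at 0.18, 0.11 and 0.05, none past the test. In these cells 5 of 16 interferon-γ-induced genes fell and 2 rose, and 14 of 22 interferon-induced genes fell; their part in the fall of the immunosubunits was not tested. Of the MHC class I processing genes 1 rose, Calr at 0.39, and 2 fell, among them Tapbpl, which encodes a tapasin relative, at -0.64.

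**Figure D5:**
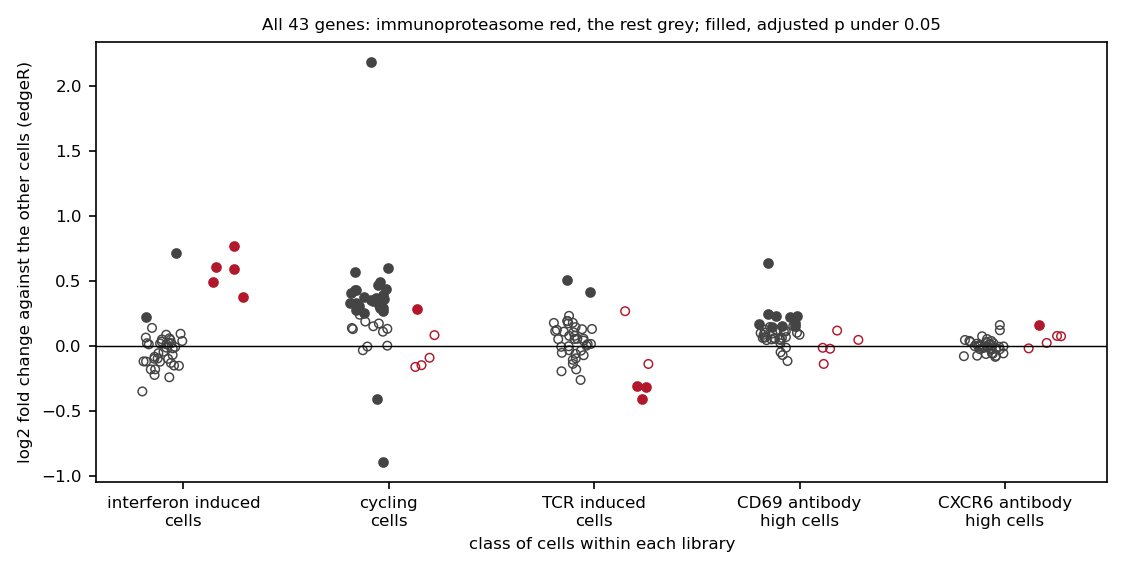
Log2 fold change (y axis, edgeR) of the 43 genes in each class of cells (x axis) against the other cells of the same libraries, immunoproteasome genes in red and the others in grey, filled where the adjusted p is under 0.05. The 5 red points lie between 0.38 and 0.77 in interferon-induced cells, and 25 grey points are filled above 0 in cycling cells.

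Surface protein defined the last classes of cells, at a wider cut than the scores above. CD69, which holds T cells in tissue and marks recent activation, was used to set the cells with the highest antibody counts, at most 1 in 4 of each library, against the rest. Of the remaining genes 10 of 38 rose and 0 fell, against 8.72% of all genes that rose and 7.99% that fell. The smallest p-values were those of Psmc3ip (0.64, adjusted p = 0.000356; 11.2, 0, 12.4 and 6.05 CPM against 6.74, 7.94, 7.47 and 5.91 CPM), the ATPase gene Psmc5 (0.23, adjusted p = 0.00163; 103, 106, 109 and 80.5 CPM against 83.3, 78.1, 94.4 and 68.0 CPM) and Psmd6, of the 19S lid (0.22, adjusted p = 0.00319). Psmc5 and Psmd6 were higher in 4 of 4 libraries and Psmc3ip in 3 of 4. Of the immunoproteasome genes 0 of 5 passed edgeR's test and 0 passed DESeq2, with 1 higher (Psme2, 0.12) and 1 lower (Psmb10, -0.14) at an unadjusted p under 0.05; Psmb8 was at 0.05, Psme1 at -0.01 and Psmb9 at -0.02. Of the constitutive genes Psmb6 rose (0.15, adjusted p = 0.0396, higher in 3 of 4 libraries), and Psmb5 (0.12) and Psmb7 (0.05) did not pass. Cd69 RNA itself was at 0.06 in CD69-high cells (adjusted p = 0.447). Without the day 14 brain or the day 14 spinal cord 0 of 38 rose, against 197 of 9203 and 266 of 9031 genes. Without the day 50 spinal cord 1 immunoproteasome gene rose and 1 fell. With DESeq2 1 of 38 rose, against 268 of 10707 genes. CD69-high cells held more UMIs (medians of 5538 and 4001 in the day 14 brain) and 24 of 30 cycling genes rose in them; the part of neither was tested.

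The antibody feature with the identifier CXCR6, a chemokine receptor of tissue-resident T cells, carries the name CD16 in the files, and that with the identifier P2X7R the name CD3. Cxcr6 RNA was higher in cells high for the former (log2 fold change 0.82, adjusted p = 5.76e-12), which are called CXCR6-high. In them Psmb8 was the only 1 of the 43 genes past the test, a smaller share than that of all genes that rose, given next. It stood at 977, 779, 971 and 990 CPM in CXCR6-high cells and at 817, 749, 890 and 855 CPM in the others (log2 fold change 0.17, SE 0.039, adjusted p = 0.00511), higher in 4 of 4 libraries, against 4.60% of all genes that rose and 3.94% that fell. Its call was lost without the day 14 brain and without the day 14 spinal cord. Psmb9 and Psme2 were at 0.08, Psmb10 at 0.03 and Psme1 at -0.02. None of the 38 remaining genes passed edgeR's test, with Psmb5 at 0.06, Psmb6 at 0.00 and Psmb7 at -0.08, 0 had an unadjusted p under 0.05 and 0 passed DESeq2. Of the MHC class I processing genes 6 of 15 rose and 0 fell, with B2m, the light chain of class I molecules, at 0.14 and H2-K1, a classical heavy chain, at 0.13. CXCR6-high cells also held more UMIs (medians of 5257 and 3988 in the day 14 brain). In them 17 of 30 cycling genes rose and 1 fell, and 3 of 17 TCR-induced genes rose and 6 fell; the part of depth and of these genes was not tested.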

How the data were processed

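Single-cell RNA and antibody counts were measured in 4 RNA libraries with 4 antibody libraries (8 mouse GEO samples). The deposited matrices hold raw UMI counts for each cell barcode, per the file headers, made by the authors with Cell Ranger 6.1.1 on mm10, per the submitters' processing notes; nothing had been normalized. The 3 antibody features have identifiers (CD69, P2X7R, CXCR6) that for 2 of them differ from their names, and the identifiers were used. Libraries were grouped by tissue and day from the labels. Kept cells had 500 or more genes and at most 10% mitochondrial UMIs, and UMIs were summed per library and scaled to CPM. Doublets were left in: Scrublet (scanpy 1.11.5, expected rate 0.8% per 1000 barcodes) called 0, 14, 0 and 17, which in the large day 14 libraries counts as failed, and its calls were removed as an alternative.

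Levels carry exact Poisson, ratios exact conditional binomial and shares Clopper-Pearson 95% intervals. UMIs, being molecules, are counted once, but the intervals hold no variation between animals. Classes of cells were tested with edgeR 4.0.16 (TMM, filterByExpr, 20 or more cells per class; DESeq2 1.42.0 as an alternative) in R 4.3.3, where 2 sums of the same library are paired by the block. The labels do not say that the libraries are separate animals, so p-values measure the spread between 4 libraries, or 3 for cycling cells. Each library is another combination of tissue and day, and none is a replicate of another. Both kinds of test were tried on simulated data with known changes first. Promoter and gene positions are from RefSeq tables of GRCm38.p6. In each comparison up to 3 genes per direction were named by distance of the interval from 0 or by adjusted p, with the 5 immunoproteasome and 3 constitutive catalytic genes always named, and any gene outside this rule was chosen after its values were seen. Values of some single genes of the accompanying lists are not reported here. The members and lists were chosen with earlier results of these data known. Alternatives were other scalings, cell filters, folds, classes and tools, and leaving out each library.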

Additional observations from a re-analysis of the deposited data

How the results depend on the processing

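The Psmb10, Psmb8 and Psmb9 shares were higher at day 50 than at day 14 in both tissues under all 9 settings that change cells or counts, by 8.30 to 12.2 points for Psmb10 in brain and 10.1 to 13.2 in spinal cord. Single shares left their counting interval in the day 14 libraries and 1 day 50 library. With thinning to 2000 UMIs, Psmb8 was 82.3%, 81.4% and 84.7% (brain day 14, spinal cord day 14 and day 50), Psmb9 66.3% and 61.5% and Psmb10 67.2% and 67.4% (day 14, brain and spinal cord). Without interferon-induced cells, at day 14 in brain and spinal cord, Psmb8 was 81.2% and 80.3%, Psmb9 64.1% and 59.7% and Psmb10 63.0% and 63.6%. Without cycling cells, the day 14 brain had Psmb8 at 82.2% and Psmb10 at 66.4%.

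Between libraries, counts are of all 43 genes. The shares of all genes called were counted only for the main setting and for 1.2-fold, both given above. Under the other settings a change in the 43 genes cannot be told from a change in all genes. For day 50 against day 14 in brain (1 higher, 3 lower), no subtraction gave 0 and 7, a library sum without ribosomal and mitochondrial genes 0 and 6, 1.2-fold 3 and 12, a limit of 50 UMIs or of 5% mitochondrial UMIs 5 lower, and leaving out the 2 richest cells per gene 4 and 0. In spinal cord (1 and 1), no subtraction gave 0 and 6, 1.2-fold 8 and 6, leaving out the 2 richest cells 2 higher, and the limit of 5% or no cycling cells 2 lower. For spinal cord against brain (0 and 0 at both days), 1.2-fold gave 2 and 6 at day 14 and 6 and 2 at day 50; at day 50 thinning gave 2 higher, no cycling cells 1 and 1, no interferon-induced cells 1 higher and no 2 richest cells 1 lower. The immunoproteasome median without subtraction was -0.19 in brain and 0.11 in spinal cord for day 50 against day 14 and -0.086 for spinal cord against brain at day 14, with remaining medians of -0.38 in spinal cord and 0.14 at day 14. Without the 2 richest cells it was 0.31 in brain, against -0.05, and 0.56 in spinal cord, and the remaining median in brain was 0.15, against -0.17; this setting takes most from rare genes of the smallest library, and the median of all genes moved to -0.46 in brain. Leaving out cells rich in MHC class II transcripts, chosen after seeing the data, moved no count or median of these by more than counting error allows.

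Between classes of cells, the fit without the block found 0 genes in interferon-induced cells, 1 higher and 0 lower in cycling cells, and 0 in TCR-induced, CD69-high and CXCR6-high cells, since differences between libraries then enter the error; 0 immunoproteasome genes passed there. With DESeq2, cycling cells had 3 higher and 0 lower (0 immunoproteasome), TCR-induced cells 0 higher and CD69-high cells 1. With all genes counted, cycling cells had 0 immunoproteasome genes higher and CD69-high cells 5 genes. With a narrower class, cycling cells had 1 lower and TCR-induced cells 1 immunoproteasome gene higher. Leaving out 1 library at a time gave 5 to 7 higher and 0 to 1 lower in interferon-induced cells, 2 to 29 higher and 0 to 2 lower in cycling cells, 0 to 3 higher and 0 to 3 lower in TCR-induced cells, 0 to 11 higher and 0 to 2 lower in CD69-high cells and 0 to 1 higher in CXCR6-high cells; of immunoproteasome genes 0 to 1 rose in cycling, TCR-induced, CD69-high and CXCR6-high cells, and 0 to 3 fell in TCR-induced and 0 to 1 in CD69-high cells. Of all genes, without the block 111, 433, 35, 0 and 0 rose in the classes in this order, and with DESeq2 250, 709, 287, 268 and 134. Leaving out 1 library at a time, 198 to 550, 531 to 1918, 259 to 786, 197 to 1095 and 63 to 536 rose. In the same fits 72 to 611, 157 to 1455, 132 to 595, 145 to 1110 and 83 to 455 fell. Causes of the changes between settings were not tested unless stated.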
